A study of Mus musculus with 18 samples.

Results

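The nuclear-encoded subunits of the respiratory chain were followed as 84 genes in the colon of germ-free mice, out of 45777 gene symbols in the deposited count table. Members were taken by symbol: the Nduf subunits of complex I (36 genes), the Sdh genes of complex II (4), the Uqcr genes and Cyc1 of complex III (9), the nuclear Cox4 to Cox8 genes of complex IV (18) and the Atp5 genes of complex V (17), leaving out Ndufs5. Pseudogene symbols and assembly factors do not match these patterns. Of the 84 members, 81 passed the filter on low counts, among 18848 genes that did, while Cox6a2, Cox7b2 and Cox8c had no count in any library.

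The study covered 18 mRNA libraries in 6 groups of 3, each library a replicate lettered A, B or C from colon tissue of 8-week-old male C57BL/6J mice. LAO1KO mice lack Lao1, DKO mice lack Lao1 and Il4i1, and wild-type (WT) mice carry both genes; both genes encode L-amino acid oxidases, which produce hydrogen peroxide as they break down amino acids. Each genotype was given drinking water with 2.5% dextran sulfate sodium (DSS) for 24 hours, a sulfated polysaccharide used to injure colonic epithelium in mice, or plain sterile water. LAO1KO is labelled Lao1-/- and DKO Lao1-/- Il4i1-/-. All mice were germ-free, and the labels give no time of day.

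Complexes I, III and IV pass electrons from NADH to oxygen and pump protons across the inner mitochondrial membrane, and complex V, the ATP synthase, uses that proton gradient. Complex II, succinate dehydrogenase, feeds electrons from succinate and is also an enzyme of the tricarboxylic acid cycle; unlike the other complexes it has no subunit encoded by mitochondrial DNA. Colonocytes oxidize short-chain fatty acids such as butyrate, which gut bacteria make, and germ-free animals lack that source.

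The libraries held 26003174 to 36553193 counts. Summed counts of Il4i1 and the overlapping Il4i1b were 0 to 12 in DKO DSS and 0 in every DKO water library, against 25 to 50 in WT DSS and 27 to 57 in WT water. LAO1KO libraries, which carry Il4i1, had 12 to 66 under DSS and 26 to 50 under water, so the 1 DKO DSS library with 12 counts was level with the lowest LAO1KO DSS library. Lao1 had 0 to 10 counts in LAO1KO and DKO libraries and 0 to 4 in WT libraries, too few to check its label. The mouse colon markers Epcam and Krt8 were present in every library, at group means of 1432 to 2300 CPM (counts per 1e6 counts, scaled with TMM factors) for Epcam and 3588 to 4859 CPM for Krt8. Because bulk tissue was sequenced, fewer cells of a type and less RNA per cell cannot be told apart.

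The members together took 1.57 to 3.14% of all counts in a library. Per kilobase of annotated transcript, the highest level belonged to Cox4i1, a regulatory subunit of cytochrome c oxidase, with 1444 ± 244 CPM per kb over the 18 libraries (SD, n = 18). The highest member of each other complex per kb was Uqcrh, the hinge protein of complex III (894 ± 210), Atp5g3, which encodes the c subunit of the ATP synthase rotor (793 ± 162), Ndufa6 of complex I (395 ± 87.3) and Sdhd, a membrane anchor of complex II (224 ± 52.8). The highest members of complexes I and II were thus below the highest members of the other complexes on this scale. The lowest detected members were the tissue isoforms Cox6b2, Cox8b and Cox4i2, at 5.51, 4.14 and 1.34 CPM per kb.

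**Figure D1:**
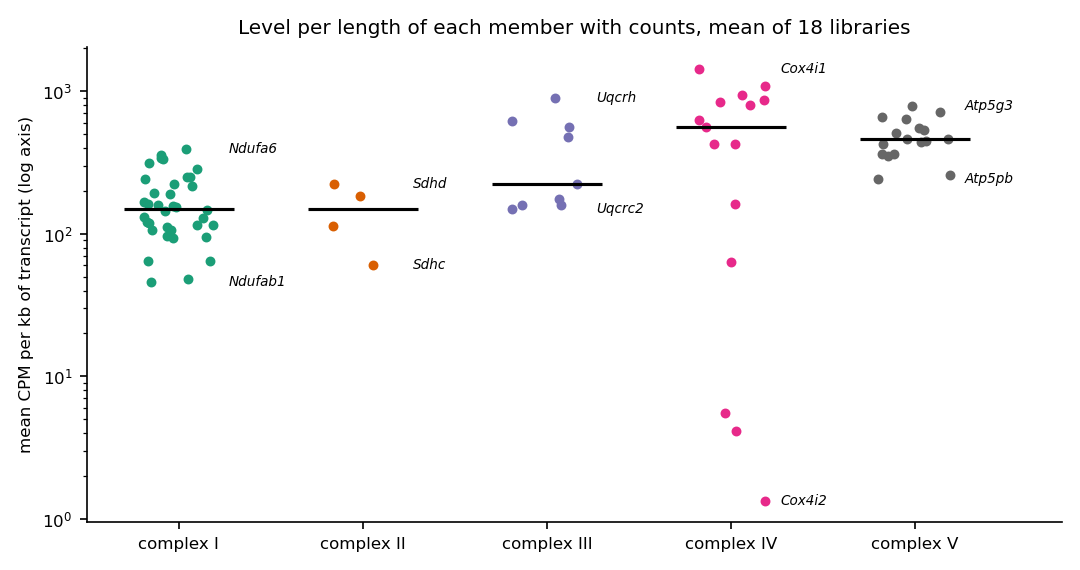
Mean level of each member with counts, in CPM per kilobase of annotated transcript on a log axis, over the 18 libraries, grouped by complex; bars mark the median of the complex and the highest and lowest members are named. Cox4i1 at 1444 CPM per kb was highest, and the tissue isoforms of complex IV formed the low end, down to Cox4i2 at 1.34.

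Complex IV subunits with tissue isoforms were dominated by the ubiquitous copy. Cox4i1 averaged 1076 CPM against 0.972 CPM for the lung isoform Cox4i2, and per kb the order was the same. Cox8a stood at 938 CPM per kb, against 4.14 for the muscle and brown fat isoform Cox8b, and the testis isoform Cox8c was at 0 in all libraries. Cox7a2 (428 CPM per kb) exceeded the heart and muscle isoform Cox7a1 (63.5), and Cox7a2l, which is involved in joining complexes III and IV into supercomplexes, had 163. Cox6a1, Cox6b1 and Cox7b, the widely expressed partners of further isoforms, had 847, 804 and 428 CPM per kb. The muscle isoform Cox6a2 and the testis isoform Cox7b2 had no counts, which allows up to 0.0792 to 0.176 CPM per library (3 counts; counting error only). Of 6 skeletal and heart muscle markers, the myosin genes Myh4 and Myh6 were at 0 in all 18 libraries and Tnnt3 in 3, whereas Ckm (group means of 20.8 to 29.3 CPM), Acta1 (5.15 to 16.6 CPM) and Mylpf (0.769 to 1.53 CPM) had counts in every library. Of 4 brown fat markers, Ucp1 was at 0 in 16 libraries and Elovl3 in 11, and Cidea and Dio2 had counts in all, at group means of 0.540 to 1.66 CPM.

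Sequence just before the start sites was available for 68 of the 84 members, in RefSeq promoter windows of GRCm38.p6 that run from 250 bases before to 50 after the start. Motif letters were searched on both strands and none of the motifs contains another. The core of nuclear respiratory factor 1 (NRF1), TGCGCANGC, was present in 16.2% of the 68 members and in 4.70% of all 27025 genes with a window. GABP, an ETS factor, reads CCGGAAG, which 25.0% of members held, against 9.93% of all genes. The YY1 letters AAGATGGC were found in 14.7% of members and 3.19% of all genes, and the SP1 letters GGGCGG in 42.6% of members and 38.2% of all genes. Of the 3 complex II genes with a window, Sdha and Sdhd held the NRF1 core. These matches describe letters in a window and do not show binding.

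The stretches below are those of members named in the results that follow, each 5′ to 3′ with motif matches in capitals. Sdha (minus strand) holds the NRF1 core at 2 places, in chr13:74350277-74350306 and chr13:74350241-74350270, and Sdhd (minus strand) at 1, in chr9:50603910-50603939. Both genes fell under DSS in the averaged comparison. No other of the 11 members with the NRF1 core was called lower there, and Ndufa5 and Ndufb4 of these were called higher in WT. Ndufs1 and Atp5a1, also called lower on average, had no window. A link between the motif and the changes was not tested. The Sdha and Sdhd sites lie before the RefSeq start and, unlike the longer stretches below, were not screened for annotated exons. The GENCODE span of Sdha reaches chr13:74350280, so its second stretch lies inside that span and its first overlaps the end.
Sdha, first site: aggggcgtgtTGCGCAGGCgcagaatcttc
Sdha, second site: cgacacccgcgcgactcggTGCGCAAGCgc
Sdhd: ttcgctggggTGCGCACGCgcggtggcagc
Ndufb4 and Atp5e were called higher under DSS in WT colon. Each kept that call in 1 of 6 fits without 1 WT library and lost it after the length correction described below. Cox7a2 followed the mean of all members most closely, and Cox8b was the only member called higher over the 3 genotypes. The stretches of Ndufb4, Atp5e, Cox7a2 and Cox8b without annotated exons are, in that order, chr16:37654454-37654618, chr2:174464106-174464305, chr9:79759879-79760078 and chr7:140900447-140900646, all on the minus strand. Capitals mark the NRF1 core and SP1 letters in Ndufb4, GABP and SP1 letters in Atp5e and SP1 letters in Cox7a2; Cox8b held none of the 4 motifs there.
Ndufb4: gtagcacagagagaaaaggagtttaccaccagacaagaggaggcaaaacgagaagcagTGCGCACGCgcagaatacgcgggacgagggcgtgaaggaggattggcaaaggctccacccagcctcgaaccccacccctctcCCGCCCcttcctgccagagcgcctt
Atp5e: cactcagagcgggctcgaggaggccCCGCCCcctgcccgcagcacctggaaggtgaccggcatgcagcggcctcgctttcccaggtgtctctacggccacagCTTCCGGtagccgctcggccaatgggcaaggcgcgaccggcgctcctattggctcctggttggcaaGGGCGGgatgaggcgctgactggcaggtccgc
Cox7a2: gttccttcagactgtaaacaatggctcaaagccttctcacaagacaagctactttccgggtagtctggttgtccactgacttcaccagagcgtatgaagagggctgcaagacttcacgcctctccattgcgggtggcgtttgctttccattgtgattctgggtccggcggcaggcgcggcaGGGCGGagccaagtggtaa
Cox8b: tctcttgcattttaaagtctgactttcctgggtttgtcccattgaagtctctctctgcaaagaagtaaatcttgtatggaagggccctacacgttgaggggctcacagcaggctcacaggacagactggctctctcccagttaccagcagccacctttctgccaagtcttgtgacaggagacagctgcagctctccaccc

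Levels of the members were correlated with each other across the libraries. Over all 3240 pairs of tested members the median Pearson correlation of log2 CPM across the 18 libraries was 0.77, with 0.83 among complex I pairs, 0.74 among complex II pairs, 0.69 in complex III, 0.57 in complex IV and 0.74 in complex V. All these values share the same libraries and their scaling, and they include differences between groups. They also include LAO1KO water replicate A, in which 65 members had their highest level. Correlations without that library, or over all genes, are not given here. The mean of all members used next includes the member compared with it. The members closest to the mean of all members were Cox7a2 (r = 0.98), Ndufb9 (0.98), Cox6b1 (0.97), Ndufa8 (0.97) and Ndufc1 (0.96). The least alike were Cox6b2 (0.13), Sdha (0.21), Cox8b (0.22), Atp5b (0.37) and Cyc1 (0.41). Outside the members, Commd1 (0.97), S100a1 (0.97), the mitochondrial ribosomal protein gene Mrpl51 (0.97), Esd (0.96) and Ufc1 (0.96) had the highest correlation with that mean.

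One library stood apart, and it enters the averaged, LAO1KO and interaction results below. The median deviation of the 81 members from their own mean was 0.64 (log2) in LAO1KO water replicate A, against -0.26 and -0.14 in LAO1KO water replicates B and C. Across all 18 libraries, 65 of the 81 members had their highest CPM in LAO1KO water replicate A. WT water replicate B held the highest value of 9 members, with a median deviation of 0.14, and replicates A and C of that group were at -0.14 and -0.19. In the DSS libraries the median deviation lay between -0.18 and 0.17 in LAO1KO DSS, -0.11 and -0.02 in DKO DSS, and 0.09 and 0.32 in WT DSS. Several results below are therefore also given without LAO1KO water replicate A, while the correlations above are not.

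**Figure D2:**
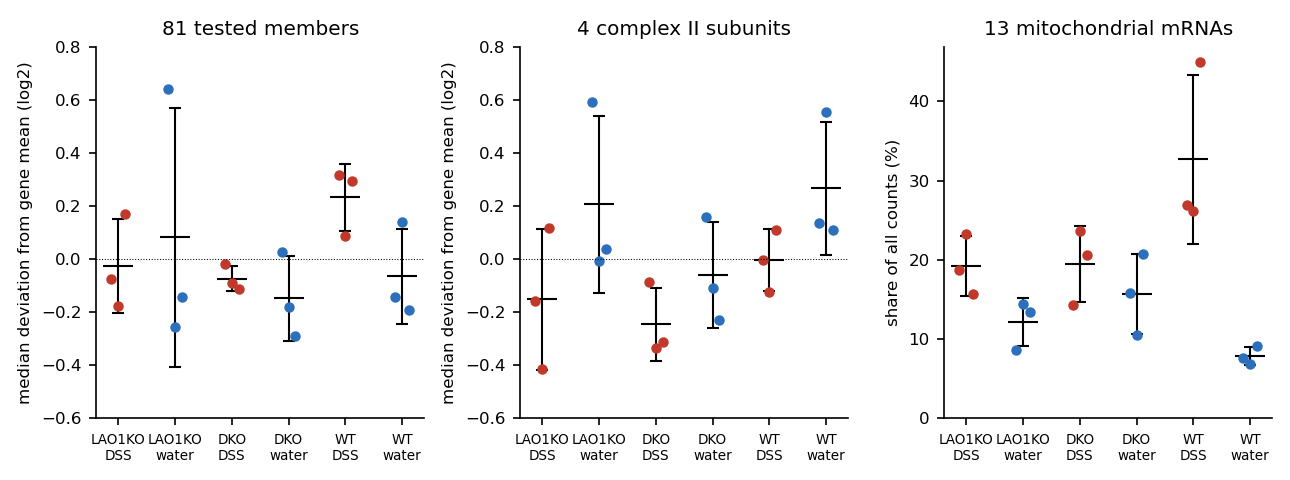
Left and middle, the median deviation of the 81 tested members and of the 4 complex II subunits from each gene's mean (log2 CPM); right, the 13 mRNAs of mitochondrial DNA as percent of a library's counts. Points are libraries A, B and C and bars are mean ± SD; LAO1KO water replicate A lies at 0.64 in the left plot, and the 3 WT DSS libraries hold 26.1 to 44.9% mitochondrial mRNA.

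DSS against water, averaged over the 3 genotypes, lowered the catalytic subunit of complex II and left most other members without a call. Sdha, Sdhd, Ndufs1 and Atp5a1 fell and Cox8b rose, so 4 of 81 members were lower and 1 was higher at an edgeR adjusted p under 0.05. Over all 18848 tested genes, 9.18% were called lower and 6.72% higher, so the members' share of calls was below that background in both directions. The median log2 fold change was 0.07 over the 81 members and 0.03 over all genes. By complex the medians were 0.08 for complex I, -0.28 for complex II, -0.11 for complex III, 0.11 for complex IV and 0.07 for complex V.

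Sdha encodes the flavoprotein that oxidizes succinate (chr13:74322254-74350280, minus strand, GRCm38). It had 260.4, 198 and 318 CPM in LAO1KO DSS libraries, against 466, 379.5 and 392.3 CPM in LAO1KO water libraries. DKO DSS libraries had 298, 222 and 246 CPM, against 385, 335 and 319.8 CPM in DKO water. WT DSS libraries had 256, 263 and 268 CPM, against 427, 507 and 422 CPM in WT water. Every DSS library lay below every water library, also across genotypes. The averaged log2 fold change was -0.63 ± 0.09 (SE; edgeR adjusted p = 6.3e-04). The 3 genotypes each had a negative estimate, at -0.67 ± 0.16 in LAO1KO, -0.44 ± 0.16 in DKO and -0.78 ± 0.16 in WT, of which the WT estimate passed by itself (adjusted p = 0.0074, against 0.0856 in LAO1KO and 0.406 in DKO). The interaction terms did not pass for LAO1KO against WT (0.11 ± 0.23, adjusted p = 0.851) or for DKO against WT (0.35 ± 0.23, 0.492). Sdha kept its call in all 18 fits that each left out 1 library, with averaged estimates between -0.70 and -0.60.

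Sdhd encodes a membrane anchor of complex II (chr9:50596357-50603812, minus strand). It had 229.7, 186 and 291 CPM in LAO1KO DSS libraries, against 442, 281 and 304 CPM in LAO1KO water libraries. DKO DSS libraries had 239, 189 and 203 CPM, against 324, 258 and 227 CPM in DKO water. WT DSS libraries had 263, 243 and 289 CPM, against 295, 380.2 and 311 CPM in WT water. The groups did not overlap in WT and overlapped in both knockouts. The averaged log2 fold change was -0.40 ± 0.11 (SE; edgeR adjusted p = 0.0236), and 17 of 18 fits without 1 library kept the call, the exception being the fit without DKO water replicate A. The other subunits of the complex did not pass. Sdhb, the iron-sulfur subunit, averaged 200.4 ± 36.4 CPM in LAO1KO DSS and 217 ± 90.6 in LAO1KO water, 197 ± 12.5 in DKO DSS and 192 ± 19.4 in DKO water, and 231 ± 14.3 in WT DSS and 223 ± 42.0 in WT water (SD, n = 3 each). Its averaged log2 fold change was -0.01 ± 0.13 (SE; edgeR adjusted p = 0.972), and DSS and water libraries overlapped in every genotype. Sdhc, the other anchor, averaged 181 ± 21.4 CPM in LAO1KO DSS and 209 ± 56.8 in LAO1KO water, 168 ± 10.1 in DKO DSS and 169.8 ± 24.2 in DKO water, and 189 ± 14.3 in WT DSS and 226 ± 53.4 in WT water (SD, n = 3 each), with an averaged log2 fold change of -0.16 ± 0.11 (edgeR adjusted p = 0.316). The difference between Sdha and the other subunits was not tested.

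**Figure D3:**
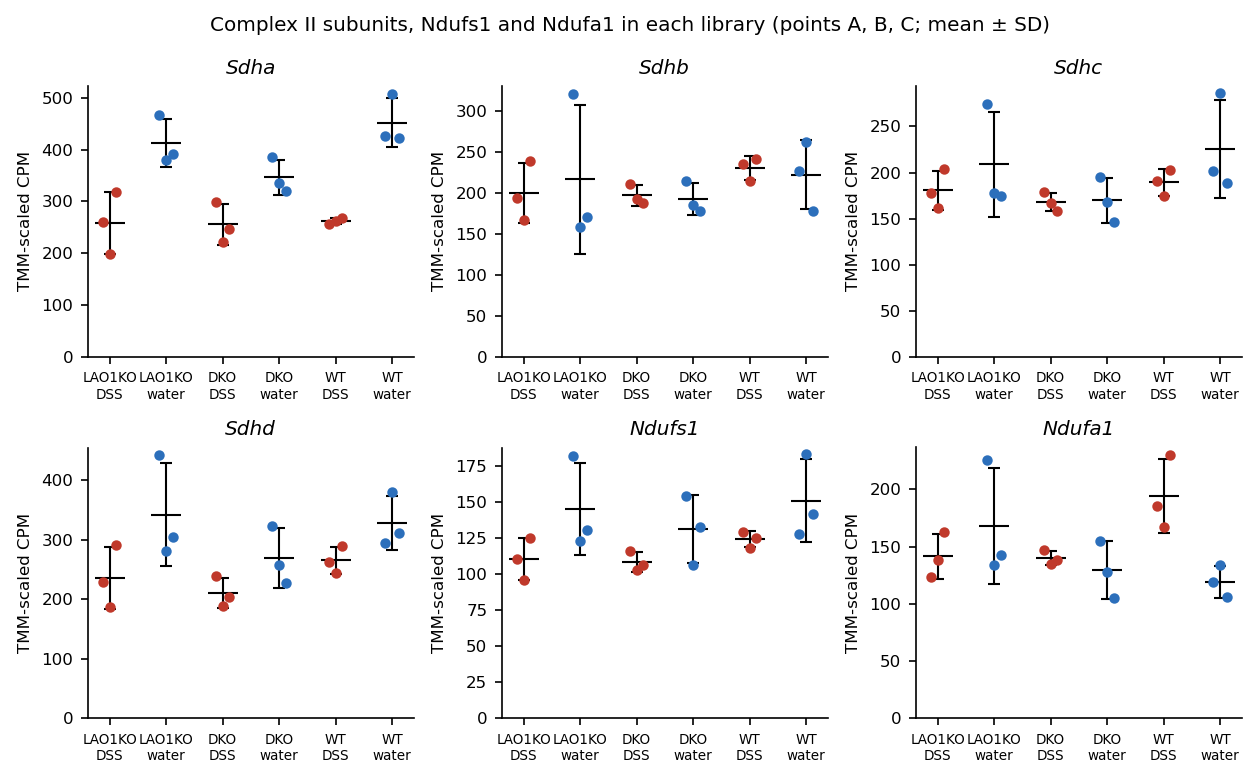
TMM-scaled CPM of the 4 complex II subunits, Ndufs1 and Ndufa1 in each library, with DSS left of water in each genotype; points are libraries A, B and C and bars are mean ± SD (n = 3). Sdha lies between 198 and 318 CPM in the 9 DSS libraries and between 319.8 and 507 CPM in the 9 water libraries, while Sdhb overlaps between DSS and water in every genotype.

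Ndufs1 encodes the largest iron-sulfur protein of complex I (chr1:63143596-63176833, minus strand). It had 110.3, 95.7 and 125 CPM in LAO1KO DSS libraries, against 182, 123 and 130.4 CPM in LAO1KO water libraries. DKO DSS libraries had 116, 103 and 106 CPM, against 154, 106 and 132 CPM in DKO water. WT DSS libraries had 129, 118 and 125 CPM, against 128, 183 and 141 CPM in WT water. DSS and water libraries overlapped in each genotype. The averaged log2 fold change was -0.32 ± 0.10 (SE; edgeR adjusted p = 0.0376), and 10 of 18 fits without 1 library kept the call.

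The catalytic subunit gene Ndufv1 and the supernumerary subunit genes Ndufab1 and Ndufa4 did not pass in the averaged comparison. Ndufv1, which binds NADH and flavin mononucleotide, averaged 144 ± 26.8 CPM in LAO1KO DSS and 179 ± 52.8 in LAO1KO water, 142 ± 19.9 in DKO DSS and 155 ± 12.3 in DKO water, and 139.8 ± 18.2 in WT DSS and 192 ± 27.9 in WT water (SD, n = 3 each), with a log2 fold change of -0.30 ± 0.11 (SE; edgeR adjusted p = 0.0708). The acyl carrier protein gene Ndufab1 averaged 159.7 ± 17.0 CPM in LAO1KO DSS and 182 ± 64.6 in LAO1KO water, 141 ± 0.659 in DKO DSS and 134 ± 22.1 in DKO water, and 173 ± 20.2 in WT DSS and 164 ± 25.3 in WT water (SD, n = 3 each), with a log2 fold change of -0.01 ± 0.11 (SE; edgeR adjusted p = 0.949). Ndufa4, assigned to complex IV in human cells and counted here by its symbol, averaged 210.4 ± 37.04 CPM in LAO1KO DSS and 222 ± 115 in LAO1KO water, 199 ± 15.4 in DKO DSS and 159.9 ± 17.4 in DKO water, and 217 ± 26.5 in WT DSS and 222 ± 59.8 in WT water (SD, n = 3 each), with a log2 fold change of 0.07 ± 0.15 (SE; edgeR adjusted p = 0.791). These last estimates were within 1 SE of 0.

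In complex V, Atp5a1 was the only member called. Atp5a1, the alpha subunit of the catalytic head, averaged 990.2 ± 189.6 CPM in LAO1KO DSS and 1277 ± 291 in LAO1KO water, 981 ± 149.5 in DKO DSS and 1108 ± 108 in DKO water, and 1078 ± 86.0 in WT DSS and 1475 ± 243 in WT water (SD, n = 3 each), with a log2 fold change of -0.33 ± 0.11 (SE; edgeR adjusted p = 0.049999). The p lies just under the threshold, and 6 of 18 fits without 1 library kept the call. Atp5b, the beta subunit that carries the catalytic sites, averaged 1041 ± 301 CPM in LAO1KO DSS and 1289 ± 324 in LAO1KO water, 1075 ± 212 in DKO DSS and 1241 ± 40.7 in DKO water, and 1064 ± 157 in WT DSS and 1662 ± 342 in WT water (SD, n = 3 each), with a log2 fold change of -0.39 ± 0.13 (SE; edgeR adjusted p = 0.0576). This was the largest averaged change of complex V and did not pass. The c subunit genes encode the same mature protein. Atp5g1 averaged 251 ± 23.8 CPM in LAO1KO DSS and 256 ± 115 in LAO1KO water, 241 ± 18.3 in DKO DSS and 233 ± 10.1 in DKO water, and 286 ± 56.2 in WT DSS and 267 ± 54.4 in WT water (SD, n = 3 each), with a log2 fold change of 0.04 ± 0.13 (SE; edgeR adjusted p = 0.865). Atp5g2 averaged 199.6 ± 18.6 CPM in LAO1KO DSS and 189 ± 32.6 in LAO1KO water, 176 ± 7.50 in DKO DSS and 174 ± 11.7 in DKO water, and 201 ± 17.5 in WT DSS and 188 ± 7.47 in WT water (SD, n = 3 each), with a log2 fold change of 0.07 ± 0.07 (SE; edgeR adjusted p = 0.568). Atp5g3 averaged 533 ± 78.6 CPM in LAO1KO DSS and 627 ± 210.4 in LAO1KO water, 489.7 ± 63.4 in DKO DSS and 506 ± 69.3 in DKO water, and 653 ± 52.0 in WT DSS and 588 ± 138 in WT water (SD, n = 3 each), with a log2 fold change of -0.04 ± 0.12 (SE; edgeR adjusted p = 0.838). Their estimates were within 1 SE of 0.

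No complex III member passed in the averaged comparison by edgeR, and 1 had an unadjusted p under 0.05. Uqcrfs1, the Rieske iron-sulfur protein, averaged 266 ± 66.9 CPM in LAO1KO DSS and 368 ± 151 in LAO1KO water, 242 ± 34.9 in DKO DSS and 286 ± 43.7 in DKO water, and 316 ± 13.7 in WT DSS and 357 ± 76.2 in WT water (SD, n = 3 each), with a log2 fold change of -0.29 ± 0.14 (SE; edgeR adjusted p = 0.155). It had the largest change of the complex. Cytochrome c1, Cyc1, averaged 226 ± 44.9 CPM in LAO1KO DSS and 223 ± 34.0 in LAO1KO water, 229.7 ± 41.8 in DKO DSS and 235 ± 12.0 in DKO water, and 239 ± 35.8 in WT DSS and 312 ± 66.0 in WT water (SD, n = 3 each), with a log2 fold change of -0.13 ± 0.11 (SE; edgeR adjusted p = 0.422). The core protein gene Uqcrc1 averaged 239 ± 38.6 CPM in LAO1KO DSS and 264 ± 70.3 in LAO1KO water, 250.4 ± 43.1 in DKO DSS and 245 ± 22.9 in DKO water, and 264 ± 27.6 in WT DSS and 317 ± 60.5 in WT water (SD, n = 3 each), with a log2 fold change of -0.12 ± 0.11 (SE; edgeR adjusted p = 0.464). The core protein gene Uqcrc2 averaged 261 ± 70.5 CPM in LAO1KO DSS and 276 ± 41.8 in LAO1KO water, 249 ± 30.2 in DKO DSS and 285 ± 22.3 in DKO water, and 271 ± 14.6 in WT DSS and 345 ± 52.5 in WT water (SD, n = 3 each), with a log2 fold change of -0.21 ± 0.10 (SE; edgeR adjusted p = 0.167). These 4 estimates were negative, while over all 9 members of the complex 5 were negative and 4 positive.

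In complex IV, whose catalytic core is encoded by mitochondrial DNA, the supernumerary subunit genes Cox4i1, Cox5a and Cox5b did not pass. Cox4i1 averaged 1077 ± 104 CPM in LAO1KO DSS and 1172 ± 317 in LAO1KO water, 1006 ± 19.7 in DKO DSS and 984 ± 88.6 in DKO water, and 1271 ± 204 in WT DSS and 945 ± 47.0 in WT water (SD, n = 3 each), with a log2 fold change of 0.11 ± 0.10 (SE; edgeR adjusted p = 0.467). Cox5a averaged 332 ± 62.0 CPM in LAO1KO DSS and 539 ± 220.4 in LAO1KO water, 309.7 ± 49.2 in DKO DSS and 395 ± 54.1 in DKO water, and 432 ± 70.8 in WT DSS and 439 ± 48.4 in WT water (SD, n = 3 each), with a log2 fold change of -0.36 ± 0.13 (SE; edgeR adjusted p = 0.0718). Cox5b averaged 474 ± 66.8 CPM in LAO1KO DSS and 475 ± 177 in LAO1KO water, 499 ± 15.8 in DKO DSS and 415 ± 57.5 in DKO water, and 603 ± 58.4 in WT DSS and 431 ± 85.1 in WT water (SD, n = 3 each), with a log2 fold change of 0.25 ± 0.12 (SE; edgeR adjusted p = 0.162). Cox5a and Cox5b are partners in the same complex, and their estimates had opposite signs. Cox5a lay between 272 and 399 CPM in the knockout DSS libraries, against 353 to 793 CPM in the knockout water libraries. The 793 CPM was that of LAO1KO water replicate A, and the other knockout water libraries lay between 353 and 456 CPM.

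Cox8b was the single member called higher (chr7:140898945-140900446, minus strand). It had 3.05, 1.87 and 2.82 CPM in LAO1KO DSS libraries, against 1.99, 2.01 and 0.507 CPM in LAO1KO water libraries. DKO DSS libraries had 0.785, 1.81 and 2.28 CPM, against 0.685, 0.792 and 0.802 CPM in DKO water. WT DSS libraries had 1.34, 1.84 and 1.65 CPM, against 0.334, 0.829 and 1.44 CPM in WT water. The levels were low and overlapped in all 3 genotypes. The averaged log2 fold change was 0.92 ± 0.29 (SE; edgeR adjusted p = 0.0419), and 4 of 18 fits without 1 library kept the call, which was also lost after the length correction described below. Summed white adipocyte markers were also highest in LAO1KO DSS, at 729 ± 545 CPM, against 307 ± 250 CPM in LAO1KO water. They were at 158 ± 95.2 CPM in DKO DSS and 78.3 ± 25.4 CPM in DKO water. In WT they were at 145 ± 117 CPM under DSS and 203 ± 179 CPM under water (SD, n = 3 each). The 6 white adipocyte markers gave no call. Skeletal and heart muscle markers summed to mean values, DSS against water, of 46.9 against 32.3 CPM in LAO1KO and 46.5 against 31.2 in DKO. In WT the muscle sums were 31.4 against 39.0 CPM. Brown adipocyte markers summed to 2.69 against 1.41 CPM in LAO1KO, 1.69 against 1.66 in DKO and 2.36 against 1.31 in WT. The part of these marker sets in the Cox8b values was not tested.

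Leaving out LAO1KO water replicate A changed the averaged picture outside complex II. Without it 31 members were called higher and 4 lower (edgeR), with 16 of the 31 in complex I, 1 in complex III, 7 in complex IV and 7 in complex V, and the members' median log2 fold change was 0.18. Complex II then still had 2 members called lower and none higher. Corrected for transcript length with all libraries kept, 0 members were higher and 12 lower. Shares of all genes called in these 2 fits are not given here, so the counts are no result about the members. Sdha and Sdhd kept their calls in both of these fits. The direction of the non-complex II members in the averaged comparison thus depended on the library and on the correction, and no direction is given for them.

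In WT colon Sdha fell under DSS, and a few members of complexes I and V rose. Of the 81 members, 6 were higher (Ndufa5, Ndufa1, Ndufa2, Ndufb4, Atp5mpl and Atp5e) and 1 lower (Sdha) by edgeR, against 6.29% of all tested genes called higher and 6.59% called lower. The 6 amount to a share close to that background and are no result about the members as a group; 1 member was called higher after the length correction described below. The members' median log2 fold change was 0.30, against 0.02 over all genes, and 64 of 81 estimates were positive. By complex the medians were 0.30 for complex I, -0.28 for complex II, 0.19 for complex III, 0.44 for complex IV and 0.33 for complex V.

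Ndufa1, an accessory subunit of the membrane arm of complex I (chrX:37187588-37191163, minus strand), had 185, 167 and 230.2 CPM in WT DSS libraries, against 119, 134 and 106 CPM in WT water (0.70 ± 0.19 on the log2 scale, edgeR adjusted p = 0.0251). Ndufa5, an accessory subunit of the peripheral arm (chr6:24518666-24528013, minus strand), had 195, 151 and 207 CPM in WT DSS libraries, against 89.0, 122 and 108 CPM in WT water (0.80 ± 0.22 on the log2 scale, edgeR adjusted p = 0.0236). Neither gene overlapped between the conditions in WT. Ndufa2, also of the peripheral arm, had 142, 119.9 and 176 CPM in WT DSS libraries, against 86.6, 98.0 and 76.7 CPM in WT water (0.75 ± 0.21 on the log2 scale, edgeR adjusted p = 0.0306). Ndufb4, a membrane arm subunit, had 133, 101 and 146 CPM in WT DSS libraries, against 89.7, 88.7 and 82.7 CPM in WT water (0.54 ± 0.16 on the log2 scale, edgeR adjusted p = 0.0364). Both were higher in all 3 WT DSS libraries than in any WT water library. Atp5mpl, a small membrane subunit of the ATP synthase, had 338, 255 and 367 CPM in WT DSS libraries, against 168, 195 and 203 CPM in WT water (0.76 ± 0.23 on the log2 scale, edgeR adjusted p = 0.0384). Atp5e, the epsilon subunit of its central stalk, had 285, 225 and 331 CPM in WT DSS libraries, against 168, 174 and 157 CPM in WT water (0.75 ± 0.24 on the log2 scale, edgeR adjusted p = 0.0449). These groups did not overlap either. Each of the 6 lost its call in at least 3 of the 6 fits that left out 1 WT library, whereas Sdha kept it in all 6. Without WT DSS replicate C, and likewise without WT water replicate A, Sdha was the only member called.

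No member passed in the knockouts. Ndufa1 had 124, 138 and 162 CPM in LAO1KO DSS libraries, against 226, 134 and 143 CPM in LAO1KO water, and 147, 135 and 139 CPM in DKO DSS, against 155, 128 and 105 CPM in DKO water. DSS and water libraries overlapped in both knockouts. In edgeR no member passed for DSS against water in LAO1KO (background 0.196% of all genes; 5 members at an unadjusted p under 0.05; 1 member called by DESeq2 and 21 by limma voom with library weights). None passed in DKO either (background 0.0159%; 2 members at an unadjusted p under 0.05; 0 by DESeq2 and 1 by limma voom). Both backgrounds are shares at an edgeR adjusted p under 0.05 and do not apply to the unadjusted counts, DESeq2 or limma voom. At an unadjusted p under 0.05, edgeR had 2936 of all 18848 genes in LAO1KO and 1807 in DKO. Shares of all genes called by DESeq2 or limma voom are not given here, so their counts are no result about the members. The smallest p-values in LAO1KO were those of Sdha, Cox5a (-0.70 ± 0.23, adjusted p = 0.169) and Sdhd (-0.54 ± 0.19, 0.202), and in DKO those of Sdha, Cox8b (1.09 ± 0.52, 0.519) and Sdhd (-0.35 ± 0.19, 0.585). In the 6 fits that each left out 1 LAO1KO library, the LAO1KO estimate ran from -0.88 to -0.34 for Cox5a. For Sdhd it ran from -0.72 to -0.34.

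The medians of the members in the knockouts were -0.18 in LAO1KO and 0.07 in DKO, beside 0.02 over all genes in both. In LAO1KO 69 of 81 estimates were negative with all libraries, and 67 of 81 were positive without LAO1KO water replicate A, when the median was 0.16. The direction in LAO1KO thus rested on that library. In DKO 57 of 81 estimates were positive, and 33 of 81 were after the length correction described below, when the median was -0.03.

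**Figure D4:**
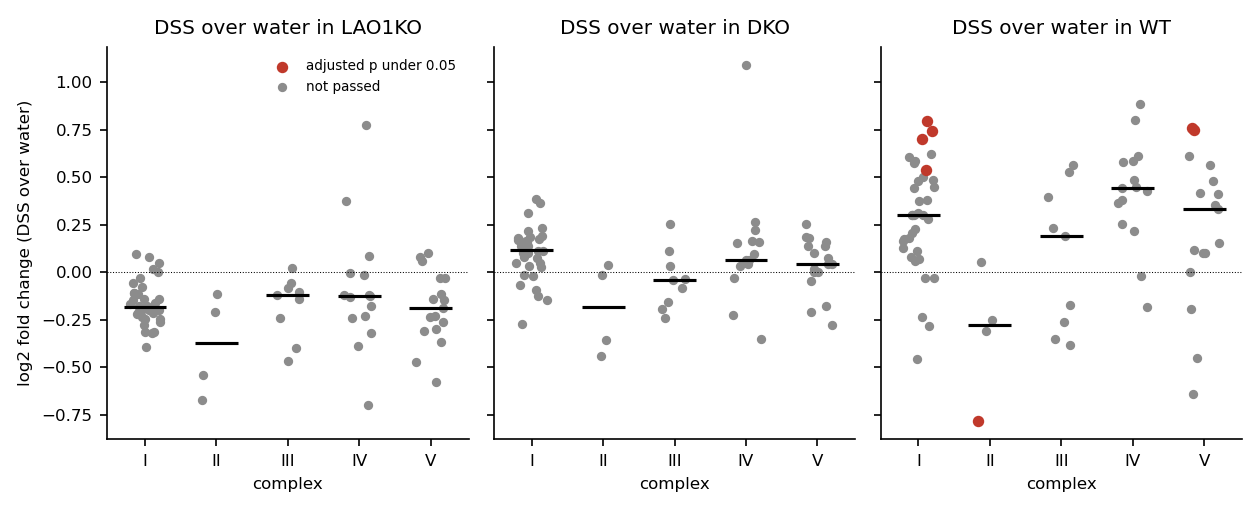
Log2 fold changes of the 81 tested members for DSS over water in LAO1KO, DKO and WT colon, by complex; bars are medians and red points passed an edgeR adjusted p under 0.05. Members of complexes I, III, IV and V centre above 0 in WT, and the median of complex II lies below 0 in all 3 genotypes.

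The difference in the DSS response between genotypes was tested as an interaction. For LAO1KO against WT no member and no gene passed by edgeR (0% of all genes), 19 members had an unadjusted p under 0.05, and DESeq2 called 1 member and limma voom 10. The smallest p-values belonged to Ndufa1 (-0.95 ± 0.27, adjusted p = 0.147), Ndufa5 (-0.97 ± 0.30, 0.162) and Ndufa2 (-0.94 ± 0.30, 0.169). The members' median interaction was -0.44, and it was -0.10 without LAO1KO water replicate A and -0.08 after the length correction described below. For DKO against WT no member passed by edgeR (background 0.0584%; 2 at an unadjusted p under 0.05; 0 by DESeq2 and 0 by limma voom), with Atp5mpl (-0.72 ± 0.32, adjusted p = 0.301), Ndufa1 (-0.59 ± 0.27, 0.311) and Ndufa5 (-0.64 ± 0.30, 0.327) at the smallest p-values. The members' median interaction for DKO was -0.22, and 0.03 after that correction. These interactions share the WT libraries. Their backgrounds are shares at an edgeR adjusted p under 0.05 and do not apply to the unadjusted counts, DESeq2 or limma voom. Matching shares of all genes are not given here, so those counts are no result about the members.

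Short transcripts and long transcripts of the members differed in their DSS estimates. Across the 81 members the Spearman correlation between transcript length and the log2 fold change was -0.21 in LAO1KO, against 0.05 across 17341 genes with a length. In DKO it was -0.44 (all genes -0.08), and in WT -0.67 (all genes -0.31). These are correlations across genes, which are not independent replicates, and members are short, with a median of 745 nt against 2560 nt over the tested genes. In WT the 53 members under 1000 nt had a median log2 fold change of 0.41 and the 28 longer ones -0.10, while all genes under 1000 nt had 0.40 and longer genes -0.04. In WT the short members thus moved by about the same amount as all short genes, a set that includes them. In LAO1KO the medians were -0.14 for short members and 0.01 for all short genes, and in DKO 0.11 and 0.13. With a smooth length correction per library the members' WT median was -0.07, and 5 of the 6 members called higher lost their calls by edgeR: Ndufa1 (0.12, adjusted p = 0.527), Ndufa2 (0.27, 0.168), Ndufb4 (0.27, 0.103), Atp5mpl (0.13, 0.565) and Atp5e (0.16, 0.503). The Ndufa5 estimate was 0.49 (adjusted p = 0.0366), against 0.80 uncorrected, and still passed. Sdha was at -0.74 (adjusted p = 0.0099), against -0.78 uncorrected. Corrected, Atp5b (-0.70, adjusted p = 0.0489) and Ndufv1 (-0.55, 0.0472) also passed as lower in WT.

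**Figure D5:**
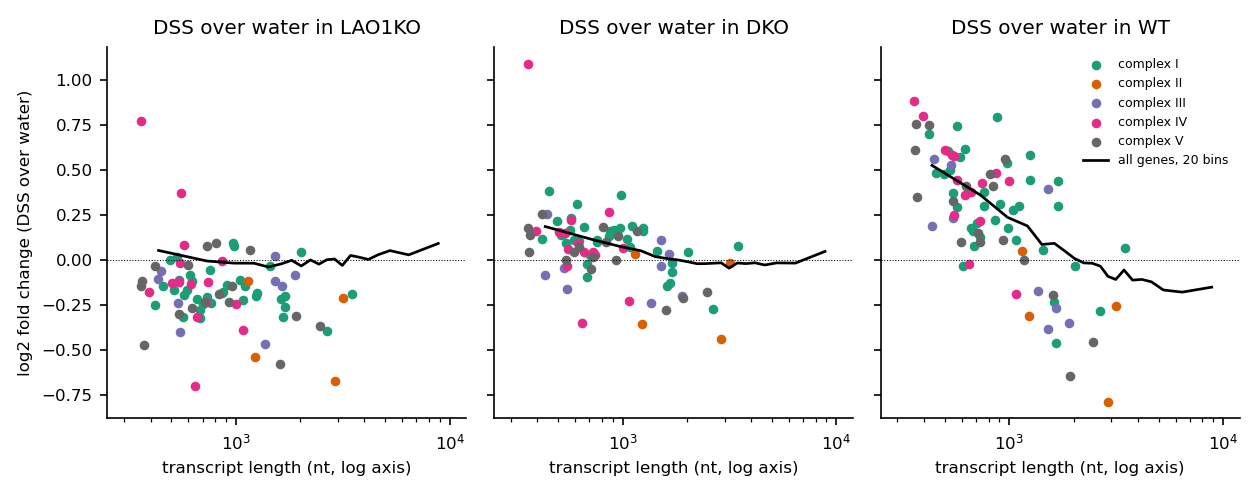
Log2 fold change of each tested member for DSS over water against the length of its annotated transcript (nt, log axis) in LAO1KO, DKO and WT colon, coloured by complex; the black line joins the medians of all genes in 20 length bins. In WT the members fall with length (Spearman rho -0.67) around the line of all genes, with Sdha the lowest point.

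The knockouts were compared with WT in each drinking condition, and no member passed by edgeR in any of the 4 comparisons. Backgrounds given for these comparisons are shares at an edgeR adjusted p under 0.05. They do not apply to unadjusted counts, DESeq2 or limma voom. Shares of all genes called by DESeq2 or limma voom are not given here, so their counts are no result about the members. At an unadjusted p under 0.05, edgeR had 2690 of all 18848 genes for LAO1KO against WT under water. For LAO1KO against WT under water the background was 0.0531%, and 7 members had an unadjusted p under 0.05, led by Cyc1 (-0.49 ± 0.19, adjusted p = 0.263), Ndufa1 (0.49 ± 0.19, 0.269) and Ndufa2 (0.53 ± 0.21, 0.276); limma voom called 2 and DESeq2 0. Cyc1 had 262, 199 and 207 CPM in LAO1KO water libraries, against 301, 383 and 252 CPM in WT water, so that the groups overlapped. The members' median was 0.21 with all libraries, -0.14 without LAO1KO water replicate A and -0.05 after the length correction.

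For DKO against WT under water the background was 0.621%, and 5 members had an unadjusted p under 0.05, with 0 called by DESeq2 and by limma voom. Over all 18848 genes, 3263 had an unadjusted p under 0.05 by edgeR. Sdha (-0.38 ± 0.16, adjusted p = 0.242), Sdhc (-0.41 ± 0.18, 0.266) and Cyc1 (-0.41 ± 0.19, 0.272) had the smallest p-values. Sdha had 385, 335 and 319.8 CPM in DKO water, against 427, 507 and 422 CPM in WT water, with no overlap. All 4 complex II estimates were negative there (median -0.34), beside a median of -0.09 over the members and 0.01 over all genes.

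Under DSS the members' medians were -0.25 for LAO1KO against WT and -0.30 for DKO against WT, beside -0.01 and 0.00 over all genes, and in each comparison 78 of 81 estimates were negative. All genes under 1000 nt had medians of -0.16 for LAO1KO and -0.20 for DKO in these comparisons, and the members under 1000 nt had -0.29 and -0.33. After the length correction the members' medians were -0.11 for LAO1KO and -0.13 for DKO. Both genotype comparisons use the same WT DSS libraries. At an unadjusted p under 0.05, edgeR had 1135 of all 18848 genes for LAO1KO against WT under DSS. That count for DKO is not given here, nor are shares of all genes called by limma voom or DESeq2. The member counts without such a share are no result about the members. LAO1KO against WT under DSS had a background of 0.0849% and 1 member at an unadjusted p under 0.05 (Ndufa1, -0.46 ± 0.19, adjusted p = 0.805, ahead of Ndufa5 at -0.45 ± 0.21 and Ndufa6 at -0.40 ± 0.20), while limma voom called 17 members lower and DESeq2 0. DKO against WT under DSS had a background of 0.255% and 10 such members, led by Ndufc2 (-0.59 ± 0.23, adjusted p = 0.456), Ndufa2 (-0.53 ± 0.21, 0.469) and Ndufa1 (-0.47 ± 0.19, 0.475), with 7 called lower by limma voom and 0 by DESeq2. Ndufc2, a complex I membrane arm subunit, had 74.4, 74.1 and 74.5 CPM in DKO DSS libraries, against 121, 104 and 110.3 CPM in WT DSS, without overlap.

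Genes that work with the respiratory chain were counted from lists chosen with earlier results of these data known. In the averaged DSS comparison 8 of 16 tricarboxylic acid cycle genes fell and none rose, with a median log2 fold change of -0.26 beside 0.03 over all genes, of which 9.18% were called lower and 6.72% higher. They included Dlst of the 2-oxoglutarate dehydrogenase complex (-0.51 ± 0.08, edgeR adjusted p = 7.3e-04) and citrate synthase Cs (-0.42 ± 0.13, 0.0336). The count was again 8 without LAO1KO water replicate A and 7 after the length correction. Shares of all genes called in these 2 fits are not given here, so these 2 counts are no result about the list. The Sdh genes, which act in the same cycle, are not in this list.

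Of 21 complex IV assembly factors tested 5 fell and none rose in the averaged comparison, beside 9.18% of all tested genes called lower, led by Taco1, a translational activator of mitochondrial COX1 (-1.04 ± 0.10, edgeR adjusted p = 3.8e-05). Taco1 averaged 7.31 ± 1.07 CPM in LAO1KO DSS and 14.2 ± 0.112 in LAO1KO water, 6.996 ± 0.623 in DKO DSS and 10.9 ± 2.61 in DKO water, and 6.10 ± 0.431 in WT DSS and 17.3 ± 2.36 in WT water (SD, n = 3 each). Cox15 (-0.49 ± 0.09, 0.0022) and Cox10 (-0.40 ± 0.10, 0.0140), both needed to make heme a, and the copper chaperone Sco1 (-0.38 ± 0.08, 0.0037) also fell. Among 14 complex I factors Nubpl (-0.65 ± 0.13, 0.0030), which delivers iron-sulfur clusters, and Timmdc1 (-0.33 ± 0.08, 0.0115) fell. Of the 14 factors for complexes II, III and V, the complex III factors Lyrm7 (-0.50 ± 0.11, 0.0053) and Uqcc1 (-0.34 ± 0.07, 0.0037) fell. With 2 calls of 14 each, these last lists lie near the 9.18% background.

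Of 19 tested regulators of respiratory chain genes, Nrf1 (-0.22 ± 0.07, edgeR adjusted p = 0.0373) and the mitochondrial DNA polymerase Polg (-0.20 ± 0.07, 0.0421) fell and none rose, a share near the 9.18% of all genes called lower. Of 14 genes for coenzyme Q synthesis, cytochrome c and a paralog of Ndufa4, 4 fell and Pdss1 rose (0.49 ± 0.08, 7.4e-04). Of 78 mitochondrial ribosomal protein genes 1 rose and 4 fell, with a median of -0.02.

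The mitochondrially encoded subunits, which belong to complexes I, III, IV and V and not to complex II, went the other way from Sdha. All 13 rose in the averaged comparison (median log2 fold change 1.247) and in WT (2.64), and by edgeR 0 of 13 passed in LAO1KO (median 0.77; 6 at an unadjusted p under 0.05) and 0 of 13 in DKO (median 0.37; 0 at an unadjusted p under 0.05). They took 19.2 ± 3.76% of counts in LAO1KO DSS and 12.2 ± 3.06% in LAO1KO water, 19.5 ± 4.78% in DKO DSS and 15.7 ± 5.10% in DKO water, and 32.7 ± 10.6% in WT DSS and 7.87 ± 1.11% in WT water (SD, n = 3 each). With these mRNAs and the mitochondrial rRNAs taken out of the library sizes, 6 members were called in the averaged comparison and 7 in WT, all of the original calls among them.

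Other features of the libraries moved with drinking condition, and their part in the members' values was not tested. All 8 enteric neuron and glia markers rose in the averaged comparison, with summed levels of 188 ± 55.7 CPM in LAO1KO DSS and 119 ± 23.7 in LAO1KO water, 232 ± 76.7 in DKO DSS and 146 ± 54.5 in DKO water, and 196 ± 30.8 in WT DSS and 98.0 ± 17.7 in WT water (SD, n = 3 each). Of 10 colon epithelium markers 1 passed by edgeR, as lower, in the averaged comparison. Of the 10 estimates 9 were negative and 1 positive (5 at an unadjusted p under 0.05; median log2 fold change -0.26). The summed epithelium markers overlapped between DSS and water in every genotype (14012 to 21757 CPM in the knockout DSS libraries and 17296 to 29113 CPM in the knockout water libraries). Of 6 fibroblast markers 1 fell in the averaged comparison and 3 fell in WT, where their sums were 454 ± 182 CPM under DSS and 852 ± 232 CPM under water. Of 5 red cell markers none passed by edgeR in the averaged comparison (4 at an unadjusted p under 0.05; median log2 fold change 0.92), with sums of 214 ± 169.9 CPM in WT DSS and 74.5 ± 34.4 CPM in WT water (SD, n = 3 each). The clock output gene Dbp was at 71.9 to 88.5 CPM in LAO1KO DSS and 9.45 to 35.5 in LAO1KO water, 49.2 to 55.1 in DKO DSS and 22.1 to 29.4 in DKO water, and 107 to 131 in WT DSS and 6.02 to 13.6 in WT water. DSS and the clock state of the libraries cannot be told apart in this design.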

How the data were processed

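Polyadenylated RNA of 18 mouse colon samples was prepared with a stranded kit and read from both fragment ends, according to the labels. The authors deposited raw read counts, 1 value per gene symbol and library; HISAT2 2.1.0 and StringTie 2.1.3b, with Trimmomatic 0.38, and the builds GRCm38 and mm10 are listed in the submitters' processing notes. How multiply mapped reads were counted is not given in the sources used here, so members with near-identical pseudogenes are uncertain. The series design text calls the replicates biological.

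The deposited counts were analysed in R 4.3.3 with edgeR 4.0.16: filterByExpr, TMM factors, and robust quasi-likelihood models of all 18 libraries with 1 mean per group. Each of 10 comparisons was a contrast, with p-values adjusted by the Benjamini-Hochberg method over 18848 genes and a threshold of 0.05. SEs were derived from the size of each log2 fold change and its F statistic (|log2 fold change|/√F). CPM values are TMM-scaled. DESeq2 1.42.0 and limma 3.58.1 were alternatives, as were other scalings, filters, left-out libraries and a length correction. The script was tested on simulated data with planted changes. Each floor of 3 counts covers counting error only.

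Lengths are those of 1 annotated transcript per gene (GENCODE vM21; 17343 of 18848 tested genes, all 81 members), and levels per kb depend on that choice. Promoter windows came from RefSeq. The 18 pairs of replicates in 1 group differed by more than counting noise (chi-square per degree of freedom of at least 17.0). Members, lists and the naming rule were chosen with earlier results of these data known. Named were fixed core subunits and isoforms, members passing in a comparison or otherwise the 3 with the smallest p, and per complex the highest level and the largest averaged DSS change; the 5 members least like the mean, Ndufc2 levels and list genes were chosen after their values were seen. Atp5if1 does not match the symbol rule. Results for some named genes are not reported here.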

Additional observations from a re-analysis of the deposited data

How the results depend on the processing

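The call of Sdha for DSS against water, averaged and in WT, passed under every alternative run. Sdhd lost its averaged call without both WT water replicate B and LAO1KO water replicate A (-0.29 on the log2 scale). Counts of called members moved most. Shares of all genes called under these alternatives are not given here, so the counts are no result about the members. In the averaged comparison (5 members) DESeq2 gave 10, limma voom with library weights 44, the length correction 12, the replicate block 8, and leaving out WT water replicate B with LAO1KO water replicate A 38. The length correction without LAO1KO water replicate A, added after seeing the data, gave 9 there and 1 for DKO against WT under water. In WT (7 members) DESeq2 gave 13, limma voom 37, the length correction 4 and leaving out both libraries 33. Where edgeR called 0, limma voom called 21 for DSS in LAO1KO, 1 for DSS in DKO, 2 for LAO1KO against WT under water, 17 and 7 for LAO1KO and DKO against WT under DSS, and 10 for the LAO1KO interaction; DESeq2 called 1 for DSS in LAO1KO and 1 for the LAO1KO interaction. DKO against WT under DSS had 1 with its 2 groups alone and 1 without both libraries. Leaving out 1 library in turn gave 1 to 35 members in the averaged comparison (35 without LAO1KO water replicate A), 1 to 7 in WT and 0 to 1 for DSS in LAO1KO, where 1 passed without LAO1KO DSS replicate C. The cause was not tested.

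No clear pairing of the libraries by replicate letter was seen, though these values cannot exclude one. Deviations of same-letter libraries correlated at 0.04 on average, against -0.02 for other letters, and over 0.1 in 18 of 45 same-letter pairs. Of the 18 libraries 12 were closer to their own letter. The replicate block gave 8 members averaged, 8 in WT and 0 in the other comparisons. With 3 libraries a group, the SE of a member in 1 genotype (0.16 for Sdha, 0.24 for Atp5e in WT) limits what could be called there.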
